A study of Mus musculus with 2 samples.

Results

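The genes described here are 44 interferon-stimulated genes, taken as a list of mouse gene symbols from the known interferon response. Of the 44 symbols, 43 were found among the 20330 genes of the expression table, and Mx1 was not analysed here. RNA was measured in adipose tissue macrophages (ATM), the macrophages of fat, which were sorted by their F4/80 and CD11b surface proteins out of the visceral fat of C57BL/6 mice after 12 weeks of high-fat diet, which the methods start at 4 weeks of age. The WT library came from hMRP8cre-;Hif-1α fl/fl;ApoE-/- mice and the KO library from hMRP8cre+;Hif-1α fl/fl;ApoE-/- mice. By these labels both genotypes carried the ApoE-/- alleles and loxP-flanked Hif1a, and they differed in the Cre transgene that deletes it. Cre was driven by the human MRP8 promoter, which is active from myeloid progenitors to blood monocytes and neutrophils, so the deletion is not limited to ATM. The question of the comparison was how loss of HIF-1α, the part of HIF-1 that low oxygen stabilises, goes with gene expression in ATM. There was 1 library for each genotype, with no replicates, and the sources used here do not say how many animals gave each library. Each difference below therefore describes this pair of libraries, and no test of the genotypes was possible.

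Interferons are secreted proteins that warn cells of infection. Type I interferons bind the receptor IFNAR1/IFNAR2, whose kinases JAK1 and TYK2 activate a complex with STAT2 and IRF9 that binds the interferon-stimulated response element (ISRE) in promoters. Interferon-γ binds IFNGR1/IFNGR2, and signalling through JAK1 and JAK2 leads to binding at the gamma-activated site (GAS). The guanylate-binding proteins (GBP) and immunity-related GTPases (IRG) are classical targets of interferon-γ in macrophages, whereas Isg15 and the Ifit genes are classical targets of type I interferon.

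Promoter stretches of 11 members are shown because they carry the ISRE letters and belong to the Isg15, Ifit, Bst2 and GTPase genes on which the results turn. The stretches are from RefSeq on GRCm38.p6, are written 5′ to 3′ along the gene, and hold the matches with 30 bases on either side, cut at the edge of the promoter window. Capitals mark the ISRE letters, GAAA and GAAA with any 2 bases between them (TTTC and TTTC when read on the other strand), and the GAS letters, TTC and GAA with any 3 bases between them, which read the same on both strands. Longer runs of capitals in Isg15, Bst2, Irgm1 and Gbp3 are matches that share bases.
Isg15, chr4:156200845-156200926, minus strand: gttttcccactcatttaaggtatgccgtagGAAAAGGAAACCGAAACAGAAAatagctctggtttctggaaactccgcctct
Ifit1, chr19:34640755-34640843, plus strand: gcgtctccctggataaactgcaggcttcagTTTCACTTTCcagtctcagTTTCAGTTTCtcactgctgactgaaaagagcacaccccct
Ifit3, chr19:34583343-34583446, plus strand: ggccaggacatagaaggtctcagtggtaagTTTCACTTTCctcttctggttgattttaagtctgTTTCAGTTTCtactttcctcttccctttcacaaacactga
Bst2, chr8:71537557-71537638, minus strand: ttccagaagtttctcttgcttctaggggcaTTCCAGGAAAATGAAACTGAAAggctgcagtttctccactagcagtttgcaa
Irgm1, chr11:48871405-48871480, minus strand: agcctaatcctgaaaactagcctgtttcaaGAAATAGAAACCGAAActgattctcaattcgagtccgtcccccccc
Irgm2, chr11:58214872-58214952, plus strand: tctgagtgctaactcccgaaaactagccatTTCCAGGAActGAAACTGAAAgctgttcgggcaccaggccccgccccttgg
Igtp, chr11:58199481-58199561, plus strand: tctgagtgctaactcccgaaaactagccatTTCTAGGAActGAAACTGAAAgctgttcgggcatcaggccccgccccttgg
Gbp2, chr3:142620574-142620643, plus strand: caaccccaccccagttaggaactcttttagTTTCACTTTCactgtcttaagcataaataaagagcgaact
Gbp3, chr3:142559969-142560044, plus strand: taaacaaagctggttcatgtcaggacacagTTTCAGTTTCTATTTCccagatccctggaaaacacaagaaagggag
Gbp5, chr3:142496684-142496920, plus strand: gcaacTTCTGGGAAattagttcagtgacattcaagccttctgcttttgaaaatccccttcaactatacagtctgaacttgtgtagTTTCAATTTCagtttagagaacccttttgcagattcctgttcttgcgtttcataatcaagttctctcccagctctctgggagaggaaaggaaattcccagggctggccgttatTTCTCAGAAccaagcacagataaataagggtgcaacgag
Gbp7, chr3:142530200-142530322, plus strand: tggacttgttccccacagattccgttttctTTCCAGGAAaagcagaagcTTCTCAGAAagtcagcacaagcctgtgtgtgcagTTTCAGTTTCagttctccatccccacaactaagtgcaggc

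The stretches of Igtp and Irgm2, neighbouring genes on chromosome 11, were identical at 79 of 81 bases (97.5%). Both hold a GAS match next to an ISRE match, as does Bst2, where the matches share bases. A promoter window from 250 bases before to 50 bases after the start was found for 33 of the 44 members. The ISRE letters were in the window of 20 of these 33 members (60.6%), against 3.99% of 27025 genes with a window. The GAS letters were in 12 of 33 (36.4%) against 9.55% of genes. The letters of the hypoxia response element that HIF-1 binds, ACGTG or GCGTG on either strand, were in 13 of 33 (39.4%) against 46.7% of genes. Counted by window, ISRE letters were in 21 of 39 windows of the members and in 3.44% of all 32851 windows, GAS letters in 12 of 39 and 8.30%, and hypoxia response letters in 14 of 39 and 43.8%. A match is a match of letters only, and a window with no match says only that the letters are not in those 300 bases.

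The authors deposited expression as FPKM, fragments per kilobase of transcript scaled to the mapped fragments of the library, so levels can be compared between genes per length. FPKM summed to 585823 in WT and 568329 in KO, and the depth estimated from the smallest recurring FPKM step was about 5860000 and 7470000 fragments. The median member had about 212 fragments behind it in WT and 320 in KO, and 13 members rested on fewer than 100 in at least 1 library. Hif1a, the targeted gene, was at 30.4 FPKM in WT against 21.0 in KO, a whole-gene value that does not isolate the deleted exon. Apoe, labelled -/- in both genotypes, was detected at 94.3 FPKM in WT and 117 in KO, which is also a whole-gene value, so it does not show whether the transcript was intact and does not check that label. The F4/80 gene Adgre1 was at 299 and 239 FPKM and the CD11b gene Itgam at 128 in both. In bulk RNA, fewer cells of a type and less RNA per cell cannot be told apart. Of 42 proteasome and RNA polymerase II genes, which every cell uses, 2 were listed at 0 in WT (Polr2h and Polr2i) and 1 in KO (Polr2d), so a value listed at 0 may be a failed estimate rather than absent RNA.

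Changes are given as KO minus WT on the log2(FPKM + 1) scale, which understates the change of low genes, and as ratios of FPKM where named so. Genes that reached 1 FPKM in 1 or both libraries were compared and were called higher or lower past 3-fold on this log2 scale, the threshold used in the study. Of the 43 members, 42 passed that filter, and Ifi44 was listed at 0 in both libraries. The members did not differ in 1 direction: 23 were above 0 and 19 below, with a median of 0.17 against 0.03 over all 10297 genes. Of all these genes, 5280 were above 0 and 5017 below, which is the background for every count of direction given below. For 6 members, another gene of the table held at least 5% of their 50-base words, the distinct runs of 50 bases in the gene model. With these 6 summed with that gene, 21 members were above 0 and 21 below, with a median of -0.02. Igtp and Irgm2 are each other's copy and enter that count with 1 sum. With both left on their own and 4 members summed, 22 were above 0 and 20 below, with a median of 0.05. Past 3-fold, 3 members were higher in KO (Ifit1, Ifit2 and Mx2), where 13.6% of all genes were, and 2 were lower (Gbp5 and Igtp), where 13.7% were. These 5 of 42 members (11.9%) stand against 27.3% of all genes in either direction. Past 2-fold, 8 members were higher (19.0%, against 23.1% of all genes) and 5 lower (11.9%, against 22.5%). Of the 42, 6 passed the filter through 1 library only, the 5 just named and Gbp3. Among the 36 members at 1 FPKM or more in both libraries, none was past 3-fold in either direction, where 11.5% of all such genes were, and their median was again 0.17. By the plain FPKM ratio, over the 39 members above 0 in both libraries, 2 were past 3-fold higher (Zbp1 and Ifit1) and 3 lower (Gbp2, Gbp3 and Gbp5), where 24.5% of all such genes were past it.

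**Figure D1:**
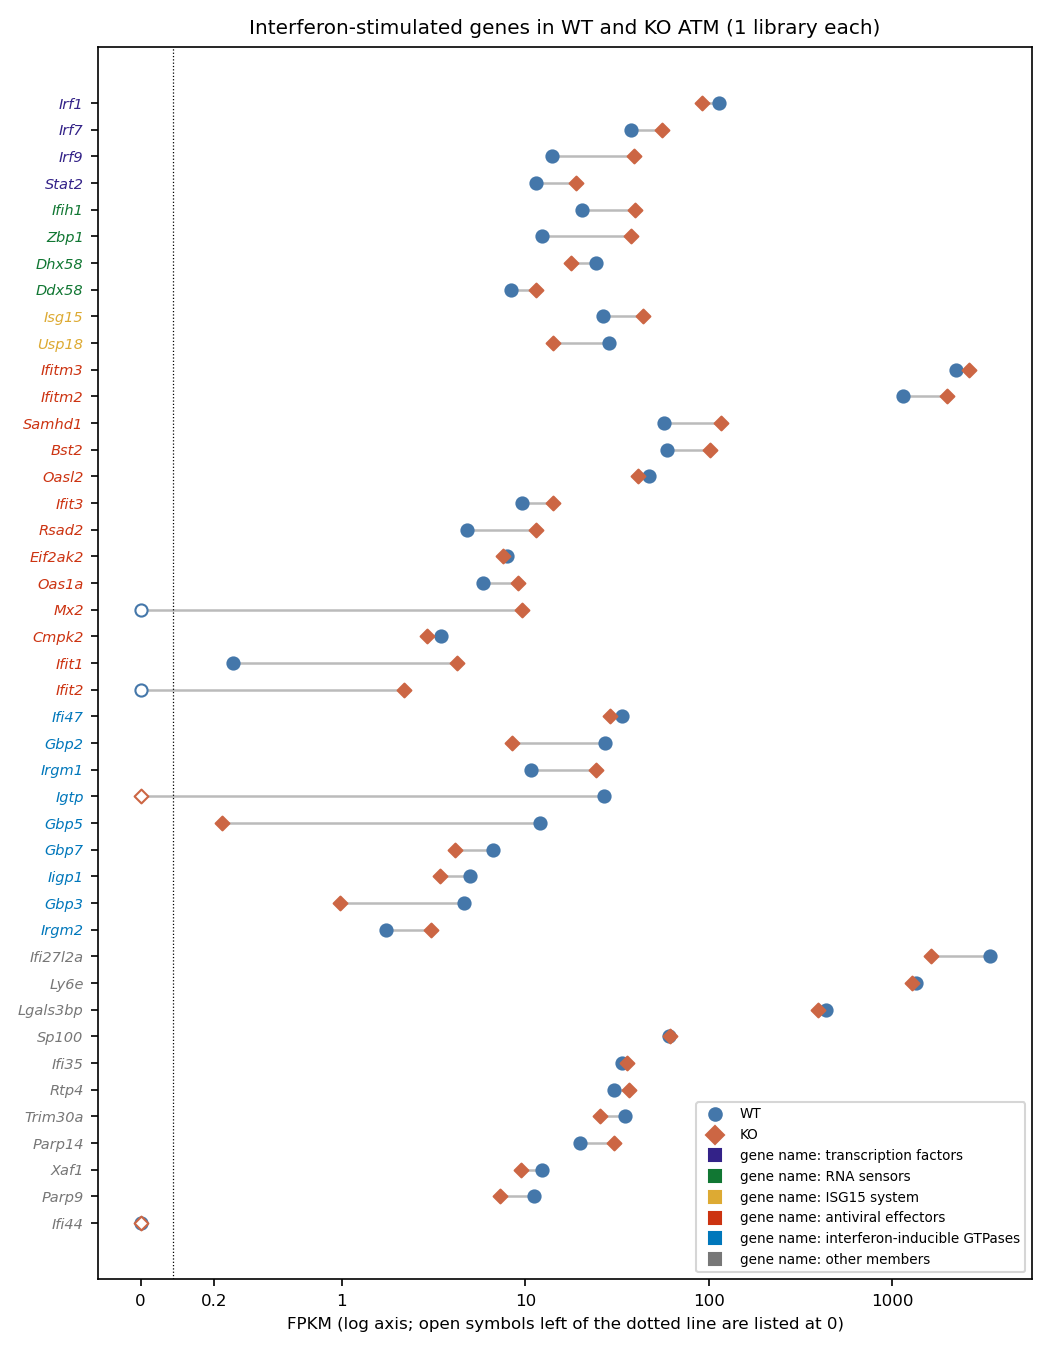
FPKM of the 43 members in the WT (circles) and KO (diamonds) libraries on a log axis, with gene names coloured by role and open symbols for values listed at 0. Of the 13 antiviral effectors 10 lie to the right in KO, or 8 with the copies of Ifit3 and Oas1a added, and the 4 Gbp genes all lie to the left.

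The 5 members with most of the signal were Ifi27l2a, Ifitm3, Ly6e, Ifitm2 and Lgals3bp. Together they made up 91.2% of the members' FPKM in WT and 89.0% in KO (8523 and 7894 FPKM). All members together were 1.60% of the summed FPKM of the WT library and 1.56% of that of the KO library. The order at the top differed between the libraries. Ifi27l2a, a gene of the ISG12 family of small interferon-inducible proteins, was first in WT at 3384 FPKM and was passed in KO, at 1625, by Ifitm3 and Ifitm2, with a WT/KO ratio of 2.08. Ifitm3, whose membrane protein blocks the entry of viruses into cells, was at 2208 FPKM in WT against 2624 in KO and was first there. The 38 members below these 5 summed to 823 FPKM in WT against 971 in KO.

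Of the 4 transcription factors of the response, 3 were higher in KO, none past 3-fold, and the median change was 0.61. Irf9, the DNA-binding subunit of the type I interferon complex, was at 13.9 FPKM in WT against 39.3 in KO, a KO/WT ratio of 2.83 and a log2 change of 1.44. Stat2, its partner in that complex, was at 11.4 and 18.9 FPKM, a ratio of 1.65. Irf7, which amplifies type I interferon production, was at 37.8 and 55.2 FPKM, a ratio of 1.46. The fourth factor lay the other way. Irf1, induced strongly by interferon-γ, was at 114 FPKM in WT against 92.2 in KO, a change of -0.30.

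The RNA sensors had a median change of 0.68, with 3 of 4 higher in KO. Zbp1, a sensor of left-handed nucleic acids that can start necroptosis, was at 12.3 FPKM in WT against 37.8 in KO. Its FPKM ratio was 3.09, but on the log2(FPKM + 1) scale its change of 1.55 was just inside the 3-fold threshold of 1.58. Ifih1, which encodes the double-stranded RNA sensor MDA5, was at 20.3 and 39.8 FPKM, a ratio of 1.96 on an estimated 539 and 1350 fragments. Ddx58, which encodes RIG-I, was at 8.30 and 11.4 FPKM. Dhx58, which encodes the regulatory helicase LGP2, was the 1 sensor lower in KO, at 24.1 FPKM in WT against 17.8 in KO. The sum of the 4 sensors was 64.9 FPKM in WT against 107 in KO.

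The ISG15 system was split. Isg15, which encodes a ubiquitin-like protein that is attached to other proteins during the response, was at 26.5 FPKM in WT against 43.6 in KO, a KO/WT ratio of 1.64. Usp18, the protease that removes ISG15 and also restrains type I interferon receptor signalling, was at 28.6 FPKM in WT against 14.2 in KO, a WT/KO ratio of 2.02.

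The antiviral effectors had a median change of 0.78 over the 13 compared, and 10 of the 13 were higher in KO, 3 of which (Ifit1, Ifit2 and Mx2) passed the filter through KO only. With 1 FPKM required in both libraries the median was 0.54, below those of the RNA sensors (0.68) and transcription factors (0.61). With Ifit3 and Oas1a summed with their near copies, 8 of the 13 were higher. Summed, they stood at 3551 FPKM in WT against 4922 in KO, of which Ifitm2 and Ifitm3 gave 3356 and 4601. Ifitm2 was at 1148 and 1978 FPKM, a ratio of 1.72, and 48.5% of its 50-base words also occur in other gene models. The gene model Gm45717 alone holds 36.1%. Samhd1, which depletes the nucleotides that retroviruses need, was at 57.2 and 117 FPKM, a ratio of 2.04. Bst2 (tetherin), which holds budding viruses to the cell surface, was at 58.8 and 102 FPKM, a ratio of 1.74. Ifitm2, Samhd1, Bst2 and Ifitm3 rested on at least 273 estimated fragments in each library, the WT number of Bst2, and all 4 were higher in KO. The effectors next in fragments went slightly the other way. Oasl2 (237 and 263 fragments) had a change of -0.20 and Eif2ak2 (200 and 244) of -0.06.

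The Ifit genes encode proteins that bind foreign RNA. Ifit1 (ENSMUSG00000034459) was at 0.256 FPKM in WT, an estimated 3.99 fragments, and at 4.26 in KO, an estimated 84.4. Ifit2 (ENSMUSG00000045932) was at 0 in the WT table and at 2.17 FPKM in KO, an estimated 36.6 fragments. Ifit3 was at 9.57 and 14.1 FPKM. The 3 genes summed to 9.82 FPKM in WT against 20.5 in KO, a ratio of 2.08. Ifit3 shares 51.2% of its 50-base words with Ifit3b, which was at 8.63 FPKM in WT and listed at 0 in KO. The sum of that pair was 18.2 FPKM in WT against 14.1 in KO, so the direction of Ifit3 turned when its copy was added.

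Mx2 (ENSMUSG00000023341), a dynamin-like GTPase that traps viral components, had a WT value of 0 and was at 9.63 FPKM in KO, an estimated 174 fragments. Genes at a like level in KO give the background for such zeros. Of 2131 genes within 1.5-fold of the KO level of Mx2, 200 (9.39%) were listed at 0 in WT. For Ifit2 the same share was 300 of 1098 genes (27.3%). For Ifit1, 360 of 1653 genes near its KO level (21.8%) had a WT/KO ratio as low. Among genes as low as the Ifit genes, values at or near 0 in the other library were therefore frequent in this table.

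The remaining effectors were not of 1 direction. Rsad2, which encodes viperin, was at 4.80 FPKM in WT against 11.4 in KO, a ratio of 2.37. Its genomic neighbour Cmpk2, a mitochondrial nucleotide kinase gene, was at 3.45 and 2.89 FPKM. Oas1a, a gene of the oligoadenylate synthetases that activate RNase L, was at 5.84 and 9.12 FPKM. It shares 57.6% of its 50-base words with Oas1g, which was at 6.19 and 1.40, and the sum of that pair was 12.0 FPKM in WT against 10.5 in KO, against the direction of Oas1a alone. Oasl2 was at 47.3 and 41.1 FPKM, and Eif2ak2, which encodes the RNA-activated kinase PKR, was at 7.92 and 7.57.

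The interferon-inducible GTPases were the group with the lowest median change, -0.58, with 7 of 9 lower in KO. Of all 10297 genes compared, 5017 were lower. Of the 7, Igtp, Gbp3 and Gbp5 passed the filter through WT only, and over the 6 GTPases at 1 FPKM or more in both libraries the median was -0.32, with 4 lower. They attack the membranes around intracellular microbes. Their sum was 128 FPKM in WT against 73.6 in KO. All 4 guanylate-binding proteins were lower, with a median of -1.54, and together they stood at 50.4 FPKM in WT against 13.8 in KO, a WT/KO ratio of 3.64. The Gbp genes lie close together on chromosome 3 and are classical targets of the same interferon, so they are not taken as 4 independent observations.

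Gbp2, which disrupts pathogen vacuoles, was at 27.1 FPKM in WT against 8.49 in KO, an estimated 400 and 159 fragments. Its FPKM ratio was 3.19, and its log2 change of -1.57 lay just inside the threshold. Gbp3 was at 4.61 and 0.974 FPKM, a ratio of 4.74 with a log2 change of -1.51. Gbp5 (ENSMUSG00000105504), which promotes inflammasome assembly, was at 12.0 and 0.222 FPKM, a ratio of 54.0 on an estimated 214 and 5.05 fragments. Gbp5 had the largest WT/KO ratio of the members above 0 in both libraries. Of 2082 genes within 1.5-fold of its WT level, 149 (7.16%) had a KO/WT ratio as low. Gbp7 was at 6.68 and 4.15 FPKM, and 12.8% of its 50-base words occur in other gene models.

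The immunity-related GTPases were not of 1 direction, with a median of -0.21 and 2 of 5 higher in KO. Igtp (ENSMUSG00000078853), also called Irgm3, was at 26.8 FPKM in WT, an estimated 287 fragments, and was listed at 0 in KO. Of 1670 genes within 1.5-fold of its WT level, 44 (2.63%) were listed at 0 in KO. Irgm2 was at 1.74 and 3.06 FPKM. Igtp and Irgm2 overlap by 162 exonic bases on the same strand, and Igtp shares 12.3% of its 50-base words with other genes, Irgm2 foremost. Summed, the pair was lower in KO as well, at 28.5 FPKM in WT against 3.06 in KO, a WT/KO ratio of 9.33. That sum was mostly Igtp in WT and all Irgm2 in KO, and Irgm2 shares 6.29% of its words with Igtp. Irgm1, which regulates autophagy and restrains the other IRG proteins, was higher in KO at 10.7 and 24.3 FPKM, a KO/WT ratio of 2.26. Iigp1 was at 4.96 and 3.42 FPKM and Ifi47 at 33.8 and 29.0. Without Igtp the GTPases summed to 102 FPKM in WT against 73.6 in KO.

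**Figure D2:**
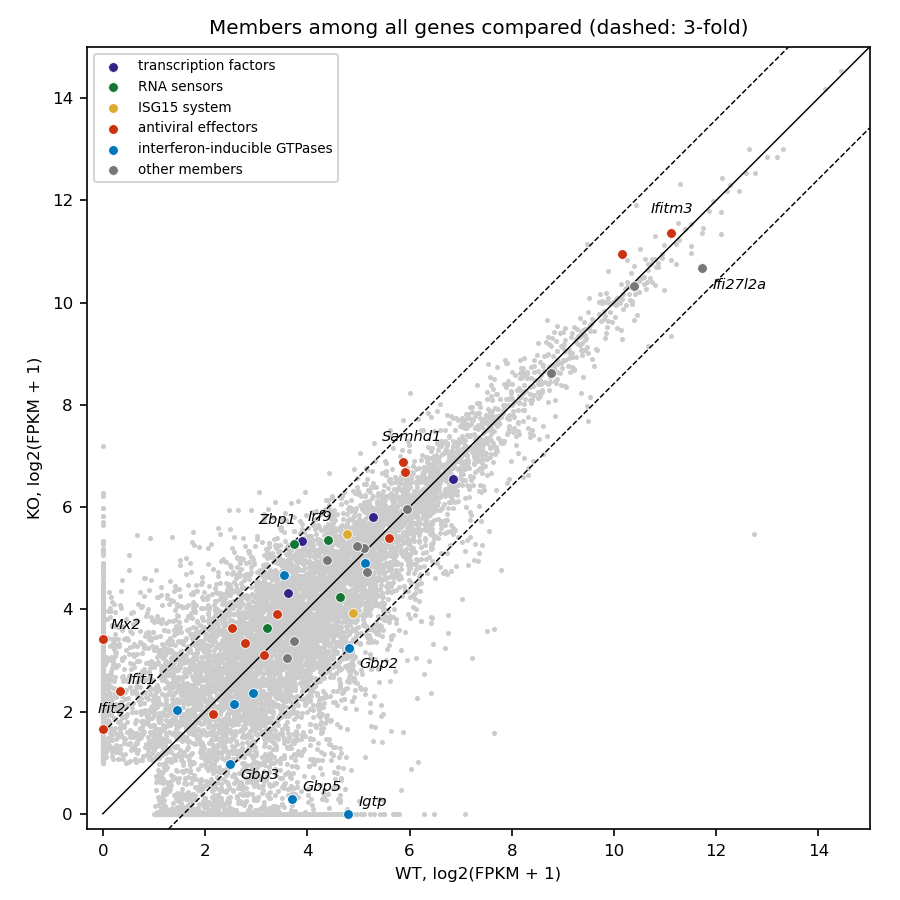
Expression of all 10297 genes compared in WT (horizontal) and KO (vertical), both as log2(FPKM + 1), with the members coloured by role, the line of equality solid and 3-fold differences dashed. Ifit1, Ifit2 and Mx2 lie above the upper dashed line and Gbp5 and Igtp below the lower one, with Zbp1 and Gbp2 just inside.

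The other members had a median change of -0.11, with 4 of 10 higher in KO and none past 3-fold. Ly6e, a surface protein gene, was at 1351 and 1277 FPKM, and Lgals3bp, a secreted glycoprotein gene, at 432 and 391. Sp100, a component of nuclear bodies, was at 60.8 and 61.7 FPKM, and Ifi35 at 33.5 and 35.6. The libraries differed by a ratio of at most 1.11 in these 4 genes. Parp14, an ADP-ribosyltransferase gene, was at 19.8 and 30.4 FPKM, whereas Parp9 was at 11.1 and 7.28. Parp9 overlaps Dtx3l on the opposite strand by 458 exonic bases, and whether strand was used in counting is not given in the sources used here. Rtp4 was at 30.4 and 36.7 FPKM, and Xaf1, a promoter of cell death, at 12.3 and 9.44. Trim30a, which restrains NF-κB signalling, was at 34.8 and 25.6 FPKM. With Trim30d, which shares 6.53% of its 50-base words, the sum was 37.6 and 49.5, so its direction turned when that copy was added.

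The share of genes past 3-fold was smaller at higher expression, for the members as for all genes. At a mean FPKM of 0.5 to 5, 45.9% of all genes were past 3-fold, and so were 3 of 7 members (Ifit1, Ifit2 and Mx2). At 5 to 20 it was 26.6% of genes and 2 of 13 members (Gbp5 and Igtp). At 20 to 50 it was 11.7% of genes and none of 13 members, and at 50 or more 3.46% of genes and none of 9. Among the members of at least 50 FPKM, Samhd1 was outside the middle 90% of genes at that level, which ran from -1.20 to 0.94. In the range of 5 to 20, Gbp5 and Igtp lay below the middle 90%, which ran from -3.30 to 3.33. In the lowest range Mx2 lay above it. A middle 90% leaves genes outside it at every level by construction, so a few members outside it are no result in themselves.

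**Figure D3:**
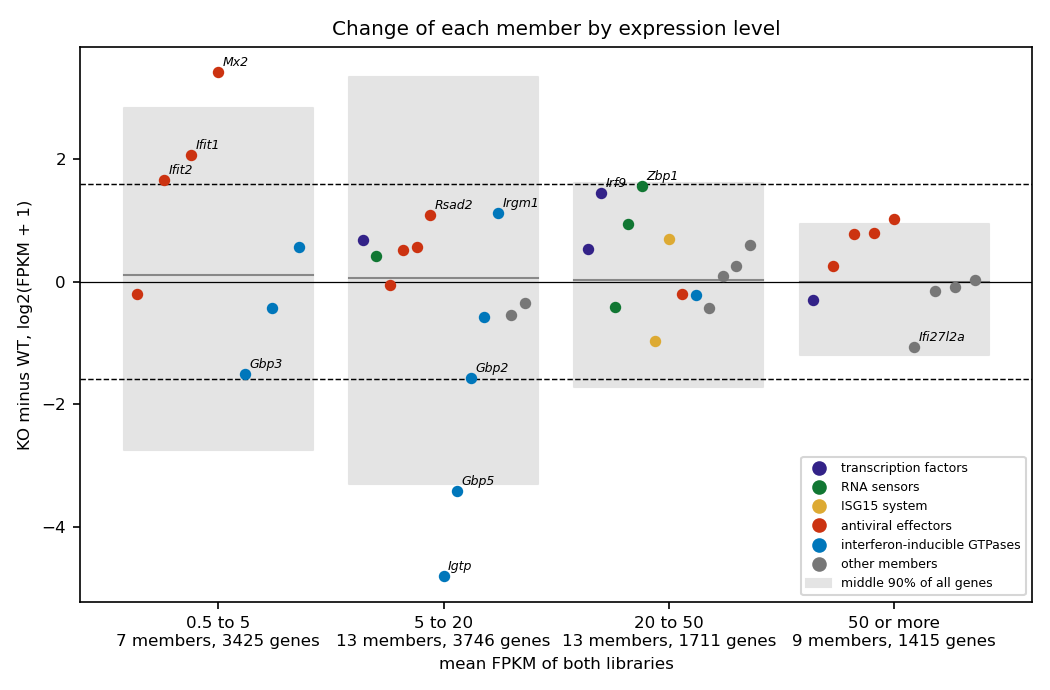
Change of each of the 42 compared members (KO minus WT, log2(FPKM + 1)) by mean FPKM of both libraries, coloured by role, with the middle 90% of all genes at that level in grey, their median as a grey line and 3-fold dashed. Mx2 lies above the grey band, Gbp5 and Igtp below it, and Samhd1 just above it at 50 FPKM or more. By construction the band leaves out some genes at each level.

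The promoter letters were set against the changes as a description. The 12 members compared with ISRE but no GAS letters had a median change of 0.69, with 9 higher in KO. The 8 with both had a median of 0.10, with 4 higher and 4 lower, or 3 higher and 5 lower with Oas1a summed with its copy, and 2 and 6 with Irgm2 summed with Igtp as well. The 12 with no ISRE letters had a median of -0.06. Of the 8 GTPases with a window, 7 held ISRE letters and 4 held GAS letters. Of the 12 antiviral effectors, 8 held ISRE and 6 held GAS letters. In the stretches printed above, Gbp2 and Gbp3 hold ISRE and no GAS letters and were lower in KO, whereas Isg15, Ifit1, Ifit3 and Irgm1 hold the same and were higher, Ifit3 only without its copy. Gbp5, Gbp7 and Igtp hold both kinds of letters and were lower, whereas Bst2 and Irgm2 hold both and were higher on their own values. The 12 members compared with hypoxia response letters had a median of 0.49 and the 20 without had 0.05.

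**Figure D4:**
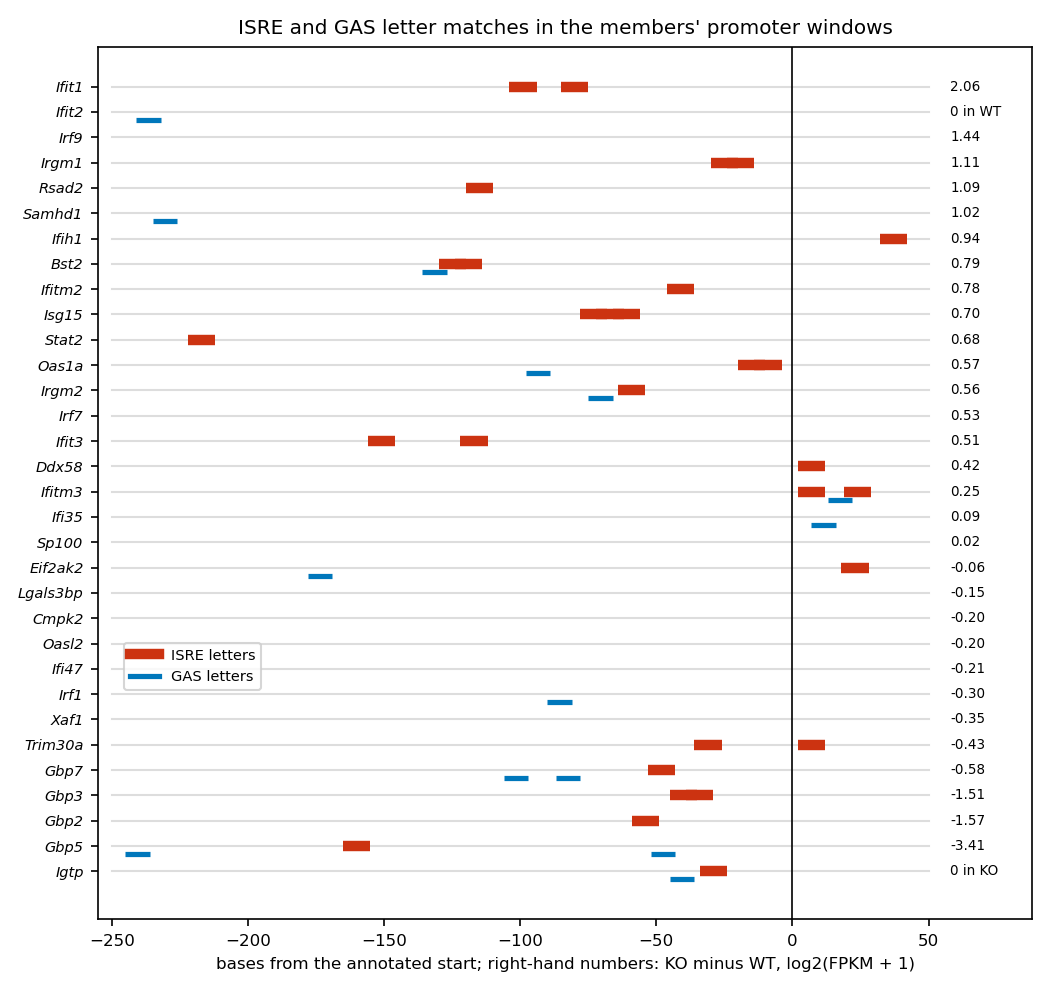
Positions of the ISRE (red) and GAS (blue) letters in the promoter windows of the 32 compared members with a window, ordered from the highest change in KO to the lowest, with the change on the log2(FPKM + 1) scale at the right. A gene with several windows has their matches on 1 line, each counted from its own start. Matches lie on both sides of the start in both the higher and the lower members.

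The genes upstream of the members were taken as lists. Of 21 interferon ligand genes, 20 were listed at 0 in both libraries, Ifng and the Ifna genes among them, and Ifnb1 was at 0 in WT and 0.440 FPKM in KO. Of the receptor genes, 5 were compared, with a median change of -0.15 and 1 past 3-fold. That 1 was Ifnar1, the first chain of the type I receptor, at 41.3 FPKM in WT against 11.1 in KO, a change of -1.80. Its partner Ifnar2 was at 90.7 and 101 FPKM. Ifngr1, the ligand-binding chain of the interferon-γ receptor, was at 74.2 and 66.8 FPKM, and Ifngr2, its signalling chain, at 34.6 and 14.6, a change of -1.19. Il10rb was at 121 and 134 FPKM, and Ifnlr1 was listed at 0 in both.

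Of 10 JAK-STAT signalling genes, 9 were compared and none was past 3-fold, with a median of 0.17. Jak1, a kinase of both interferon pathways, was at 64.3 and 67.2 FPKM and Tyk2 at 14.4 and 12.8. Jak2 was at 9.58 and 23.1 FPKM, a change of 1.19. Ptpn6, which encodes the phosphatase SHP-1, was at 55.5 and 24.0 FPKM, a change of -1.18. Ifnar1 and Ifngr2 were lower in KO, as the 4 Gbp genes were, and Irf9, Stat2 and Jak2 were higher, as Ifit1 and Ifit2 were. These genes were set side by side after their values were seen, and a link between them was not tested. Others of the receptors and kinases differed little, with changes of 0.16 for Ifnar2, -0.15 for Ifngr1, 0.06 for Jak1 and -0.15 for Tyk2. Of the other interferon regulatory factors 5 were compared, with a median of 0.06 and none past 3-fold, Irf5 at 105 and 109 FPKM and Irf8 at 27.3 and 21.9 among them.

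**Figure D5:**
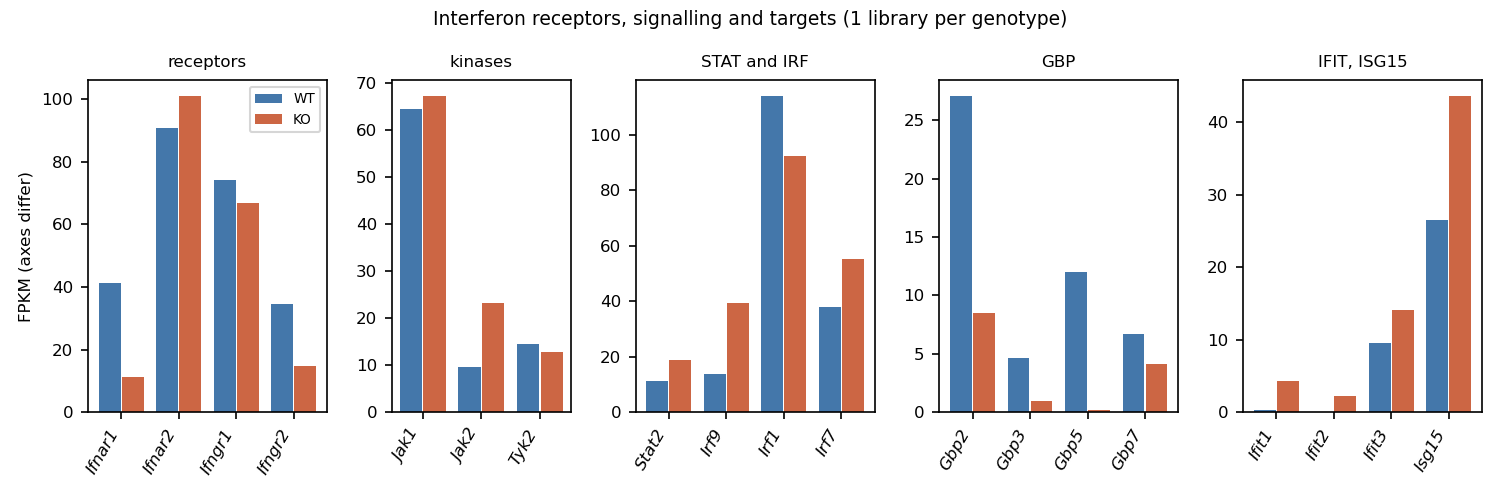
FPKM in WT (blue) and KO (orange) of interferon receptors, kinases, STAT and IRF genes, the Gbp genes and the Ifit genes with Isg15, as bars from 0 with a separate axis for each panel. Ifnar1, Ifngr2 and the 4 Gbp genes are lower in KO, and Jak2, Stat2, Irf9, Ifit1, Ifit2 and Isg15 higher, while Ifit3 is higher on its own but not with its copy Ifit3b.

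Of 16 genes of nucleic acid sensing compared, 11 were above 0, and their median change was 0.36. Past 3-fold, 1 was lower (6.25%), where 27.3% of all genes were past it in either direction. It was Tlr3, at 6.55 and 0.727 FPKM, which passed the filter through WT only. Past 2-fold, 5 of the 16 were higher (31.2%, against 23.1% of all genes) and 1 lower (6.25%, against 22.5%). The 5 higher genes are named here after their values were seen. The endosomal RNA receptor Tlr8 was at 34.2 and 74.2 FPKM and its adaptor Myd88 at 21.6 and 54.6. Mavs, the mitochondrial adaptor of the sensors MDA5 and RIG-I, was at 7.32 and 18.7 FPKM. Tmem173, which encodes STING, was at 26.3 and 57.6 FPKM, and Aim2, a DNA sensor gene, at 4.95 and 12.0.

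Markers of other cells in the sort were measured beside these results. The 10 macrophage markers in the table summed to 12533 FPKM in WT against 11837 in KO, with none at 0. Of the neutrophil markers, 8 were in the table and the 6 compared were all higher in KO, summing to 143 FPKM in WT against 499 in KO. Most of that was S100a8, at 73.3 and 182, and S100a9, at 63.4 and 301, whereas in WT 4 of the 8 had a value of 0, as had Camp and Ltf in KO too. The 5 monocyte markers summed to 42.5 and 27.9 FPKM, with Ly6c2 and Chil3 at 0 in KO. Plasmacytoid dendritic cells, a main source of type I interferon, had 7 markers with sums of 56.2 and 36.2 FPKM, of which Ccr9, Cox6a2 and Klk1 were at 0 in both. Tcf4 (39.4 and 23.2) and Ptprcap (15.3 and 4.46) made up most of these sums, whereas Siglech was higher in KO at 1.42 and 8.31 FPKM. All 8 T and NK cell markers, from the main cells that make interferon-γ, were at 0 in both. The 5 fibroblast markers were all higher in KO, summing to 43.2 and 83.9 FPKM. Conventional dendritic cell markers summed to 125 and 140 FPKM, of which Cd209a gave 122 and 131, whereas Clec9a was at 0 in both libraries. The others were low and not of 1 direction, with Zbtb46 at 0 and 9.45 FPKM, Flt3 at 0 and 0.0362, Xcr1 at 1.65 and 0.0588, and Ccr7 at 0.529 and 0. Adipocyte markers summed to 95.9 and 93.0 FPKM, of which Fabp4 gave 90.1 and 91.4, whereas Adipoq and Plin1 were at 0 in both. Endothelial markers summed to 18.4 and 16.1 FPKM. B cell markers summed to 2.75 and 6.46 FPKM, and eosinophil and mesothelial markers to 0 in WT and to 7.45 and 7.84 in KO. The part of these cells in the values of the members was not tested.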

How the data were processed

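Poly(A) RNA from sorted ATM was sequenced by the authors as 1 library for each genotype. Per the labels, RNA was fragmented, copied with random hexamers, PCR-amplified and cut to size from a gel, with no molecular identifiers stated. The authors deposited 1 table of FPKM values per Ensembl gene. The submitters' processing notes name CASAVA 1.8.2, TopHat2 2.0.9, Cufflinks 2.2.1 and the build mm9, and the annotation and filters are not given in the sources used here. The mutant column was read as KO, the only other genotype in the labels. No column of another sample was present.

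Of 20749 rows, 401 full repeats were dropped and 18 rows that gave other values for an identifier were summed, leaving 20330 genes, and GENCODE M21 gave a symbol for 20035. Changes were computed as KO minus WT of log2(FPKM + 1) on the authors' scale for the 10297 genes that reached 1 FPKM in 1 or both libraries (Python 3.11.15, pandas 2.3.3, numpy 2.4.6, figures with matplotlib 3.10.9). FPKM is already divided by length and library size, so no count model was used, and 1 library per genotype allows no p-value. Fragment numbers were estimated from the smallest recurring product of FPKM and length in kilobases among genes with a single transcript, 0.171 in WT and 0.134 in KO, and cover counting error only. Shared sequence was the share of a gene's 50-base words found in other GENCODE genes. Promoters came from RefSeq on GRCm38.p6, another build than that of the files, so they were matched by symbol. The steps were tested on simulated data.

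Every member was named. Of the receptor and signalling lists, genes of at least 1 FPKM in a library could be named, and of the other interferon-stimulated genes the 5 highest and the 5 largest changes in each direction. Members and lists were chosen with earlier results of these data known. Alternatives were pseudocounts of 0.1 and 0.01, 3 filters, 2 scalings, a 2-fold threshold, a 3-fold FPKM ratio and another treatment of repeated rows. Values of 1 signalling gene and 1 marker gene are not reported here.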

Additional observations from a re-analysis of the deposited data

How the results depend on the processing

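No paired analysis was possible because there is 1 library per genotype. The median change of the members was 0.09 to 0.21 against 0.17 under the alternatives of pseudocount, filter, scaling and repeated rows, while the median of all genes lay between 0.00 and 0.07. The counts past 3-fold moved more. With a pseudocount of 0.1 or of 0.01, 4 members were higher instead of 3 and 4 lower instead of 2, and with both libraries scaled to the same FPKM sum 4 were higher. Where both libraries had to reach 1 FPKM, 0 were higher and 0 lower, and with a mean FPKM of at least 5, 0 were higher and 2 lower. The first of these filters takes out every member with a value under 1 FPKM in a library, Igtp and Gbp5 among them, and the second takes out Ifit1, Ifit2 and Mx2. At a 2-fold threshold 8 were higher and 5 lower. With a 3-fold ratio of FPKM over the 39 members above 0 in both libraries, 2 were higher (Zbp1 and Ifit1) and 3 lower (Gbp2, Gbp3 and Gbp5), where 24.5% of all genes were past that ratio. Of 365 recomputed values for single members and roles, 353 stayed within 1.5-fold of the reported change and 12 did not, all of them for Ifit1, Ifit2, Mx2, Gbp3, Gbp5 and Igtp with a smaller pseudocount, and none changed sign. Low levels are limited by depth: 13 members rest on fewer than 100 estimated fragments in a library, and PCR copies are not independent molecules. A pair of alternatives was chosen after seeing the data. With 6 members summed with their near copies, the median was -0.02, below 0, and 21 members were above 0 and 21 below instead of 23 and 19, as Ifit3, Oas1a, Irgm2 and Trim30a turned. The second was added after that value was known, because Igtp and Irgm2 are both members and share 1 sum. With both on their own values the median was 0.05, with 22 above 0 and 20 below.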

Other observations

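Interferon-stimulated genes outside the 44 members were looked at as a further list of 97 genes, of which 74 were compared. Their median change was 0.06, with 38 above 0 and 36 below, and 19 (25.7%) were past 3-fold, 11 higher and 8 lower in KO, against 27.3% of all genes. The highest of them differed little. Ifi207, a DNA-binding HIN-200 family gene, was at 593 FPKM in WT against 732 in KO, Ifi30, a thiol reductase of antigen processing, at 469 and 528, and the chemokine gene Cxcl10 at 315 and 387. Shisa5 was at 365 and 281 FPKM and Slfn2 at 284 in both. Among genes of at least 1 FPKM in both libraries, those most in excess in KO were Trim30d at 2.84 and 23.9, the immunoproteasome subunit gene Psmb9 at 5.18 and 31.0, Tmem140 at 4.34 and 21.9, Slfn4 at 1.87 and 8.12, and Trim14 at 3.94 and 14.5 FPKM. Those most in excess in WT were Ciita, the master regulator of MHC class II genes, at 23.6 and 6.36, Epsti1 at 69.8 and 21.1, Ly6c1 at 26.8 and 7.92, Oas1g at 6.19 and 1.40, and Parp12 at 34.6 and 11.8 FPKM.

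A pair of further Gbp genes was named after the values had been seen. Gbp4 was at 3.76 FPKM in WT against 2.62 in KO, and Gbp9 at 11.9 and 4.70, so both lay lower in KO as the 4 Gbp members did. The other Gbp genes of that list did not. Gbp6 was at 0 in WT and 0.304 FPKM in KO, and Gbp8, Gbp10 and Gbp11 were listed at 0 in both. Isg20, an RNA exonuclease gene also named after its values were seen, was listed at 0 in WT and was at 35.0 FPKM in KO.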
